A study of Mus musculus with 6 samples.

Results

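The genes described here are the mitochondrial solute carriers of the SLC25 family in the cerebral cortex of mice labelled as lacking Fam69c and of wild-type mice. Members were taken by name: every row annotated as protein coding whose symbol is Slc25a followed by a number. This gave 47 genes of the 54532 in the table, of which 22046 code for protein. SLC25 proteins sit mostly in the inner mitochondrial membrane, which is closed to charged metabolites, and exchange nucleotides, phosphate, amino acids, carboxylates, cofactors and iron between the mitochondrial matrix and the cytosol. In the brain they pass ATP out to the cytosol, carry cytosolic reducing equivalents in through the malate-aspartate shuttle, and move the glutamate that neurons and glia metabolise. They are imported by a shared path of outer membrane receptors and small chaperones between the membranes.

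RNA from the cerebral cortex at 12 months of age was sequenced in 3 libraries labelled Fam69c-/- (Fam69c KO) and 3 libraries labelled WT. Fam69c, also called Dipk1c, encodes a kinase-like protein of the secretory pathway. The labels used here give no strain, sex, treatment or allele design, nor whether the libraries are of different animals. Levels are FPKM as the authors deposited them, a unit scaled by gene length and library depth, so levels can be set side by side between genes.

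The whole reads recovered from the values were 30935326 to 35065884 per library. Fam69c RNA was present in every library, at 1.60 ± 0.216 FPKM in Fam69c KO and 1.89 ± 0.285 FPKM in WT (SD, n = 3 each), with a log2 fold change of -0.19 (95% interval -0.49 to 0.11). Its RNA level thus gives no check of the labels, and groups are compared as labelled. The glutamatergic neuron gene Slc17a7 lay between 286 and 312 FPKM in Fam69c KO and between 299 and 310.2 FPKM in WT. The level of 1 neuron gene does not settle the tissue label, which is taken as given. Of the 6 libraries, Fam69c KO replicate 1 and WT replicate 3 stood apart in 8 genes of striatal projection neurons. The summed level of these genes was 206, 395 and 341 FPKM in Fam69c KO replicates 1 to 3 and 429.9, 442 and 150.3 FPKM in WT replicates 1 to 3. Values without those 2 libraries are given after the results by role.

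The family spanned from abundant to barely detected. By mean over the 6 libraries, 4 members stood at 50 FPKM or more, 13 between 10 and 50, 20 between 1 and 10, 3 between 0.5 and 1, and 7 under 0.5. The adenine nucleotide carrier Slc25a4 ranked first in the family and 115th of all genes in the table. Slc25a5, its close relative, came next, followed by the phosphate carrier Slc25a3 and the ATP-Mg/phosphate carrier Slc25a23. Slc25a4 and Slc25a5 together held 38.6%, 36.2% and 36.2% of the summed family FPKM in the Fam69c KO libraries, and 38.7%, 39.4% and 36.2% in the WT libraries. The 10 highest members held 74.2% to 76.3% in Fam69c KO and 75.2% to 76.5% in WT. The median level of the members that passed the filter of a mean of 0.5 FPKM was 8.79 FPKM, against 6.33 FPKM for all protein-coding genes that passed it.

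Between neighbours in the order of levels, the 6 values of the higher gene lay wholly above those of the lower gene at 11 of 46 steps. Among the 10 highest there were 4 such steps: Slc25a4 above Slc25a5, Slc25a5 above Slc25a3, Slc25a23 above the glutamate carrier Slc25a22, and the branched-chain amino acid carrier Slc25a44 above the aspartate/glutamate carrier Slc25a12. Slc25a3 and Slc25a23 did not separate, with values from 73.5 to 79.5 FPKM for Slc25a3 and from 65.8 to 75.0 FPKM for Slc25a23. From Slc25a22 down to Slc25a44, through the malate carrier Slc25a11 and the second glutamate carrier Slc25a18, the values of each gene overlapped those of the next.

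**Figure D1:**
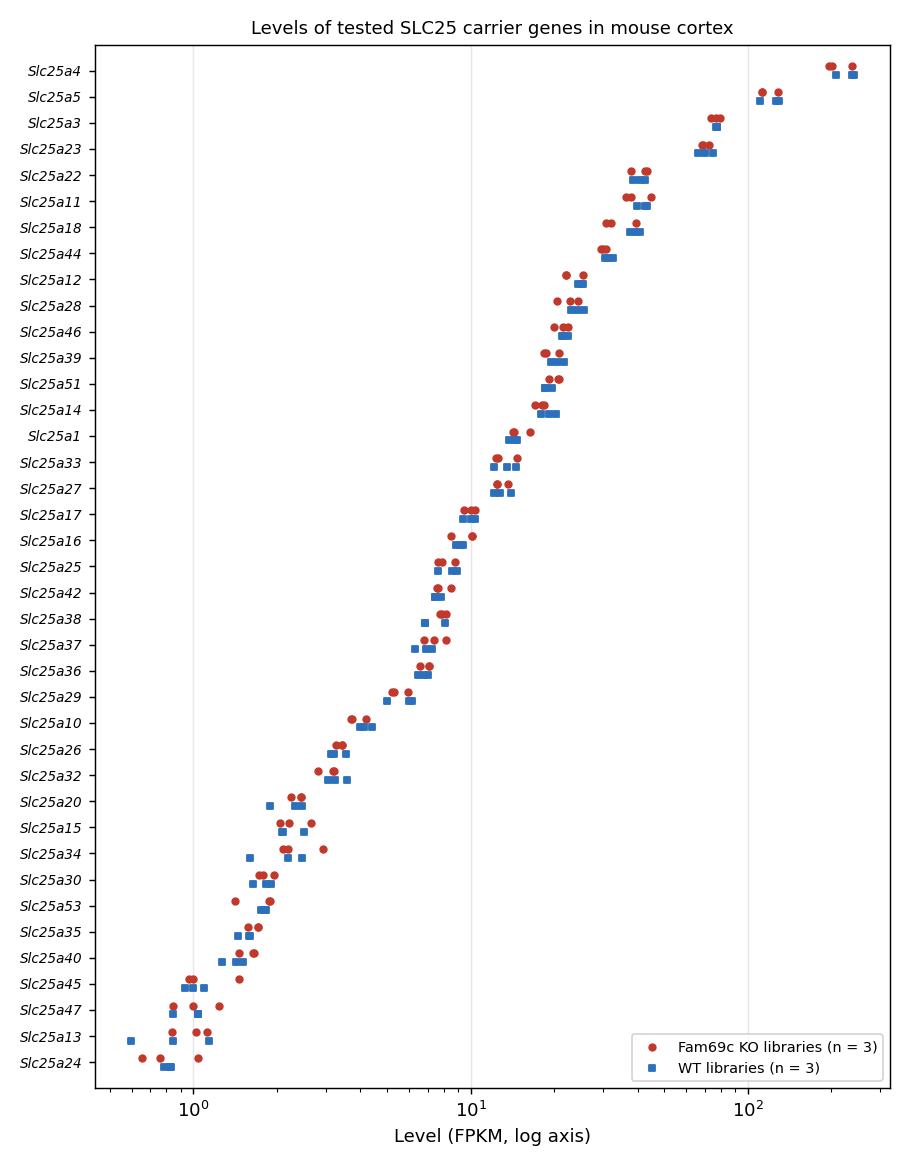
Level of 39 members with a mean of at least 0.5 FPKM in each library, on a log axis of FPKM, with Fam69c KO libraries as circles above WT libraries as squares (n = 3 each). Slc25a4, between 195 and 242 FPKM, stands wholly above Slc25a5, between 111 and 129 FPKM, and the circles and squares of every gene shown overlap.

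Between Fam69c KO and WT, 40 of the 47 members passed the filter and were tested with limma on log2(FPKM + 0.5), with Benjamini-Hochberg adjustment over all 15694 genes tested. Of the 40, 0 passed an adjusted p of 0.05, as did 0.0% of all genes tested, and every member had an adjusted p of 0.999. At an unadjusted p under 0.05 there were 0 members, against 3.82% of all genes tested. The libraries of the 2 groups failed to overlap for 0 members, against 8.87% of all genes tested. Log2 fold changes were above 0 for 19 members and below 0 for 21, and 48.0% of all genes tested were above 0. The median was -0.0046 for the members and -0.0042 for all genes tested.

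Log2 fold changes ran from -0.21 for Slc25a18 to 0.18 for the orphan carrier Slc25a34. The value of Slc25a34 was 0.05 without Fam69c KO replicate 2, 0.03 without WT replicate 3 and 0.28 without WT replicate 1. The estimate was within 0.1 log2 units of 0 for 30 of the 40 members, against 69.3% of all genes tested. The 95% interval stayed within 0.5 log2 units of 0 for 38 of the 40, against 82.2% of all genes tested. The exceptions were Slc25a34, with an interval from -0.21 to 0.56, and the low aspartate/glutamate carrier Slc25a13, with an interval from -0.26 to 0.55. The reach of the 95% interval from its estimate had a median of 0.18 log2 units over the members and 0.21 over all genes tested. The members' median coefficient of variation over the 6 libraries was 7.06%, and that of all genes tested 8.60%.

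**Figure D2:**
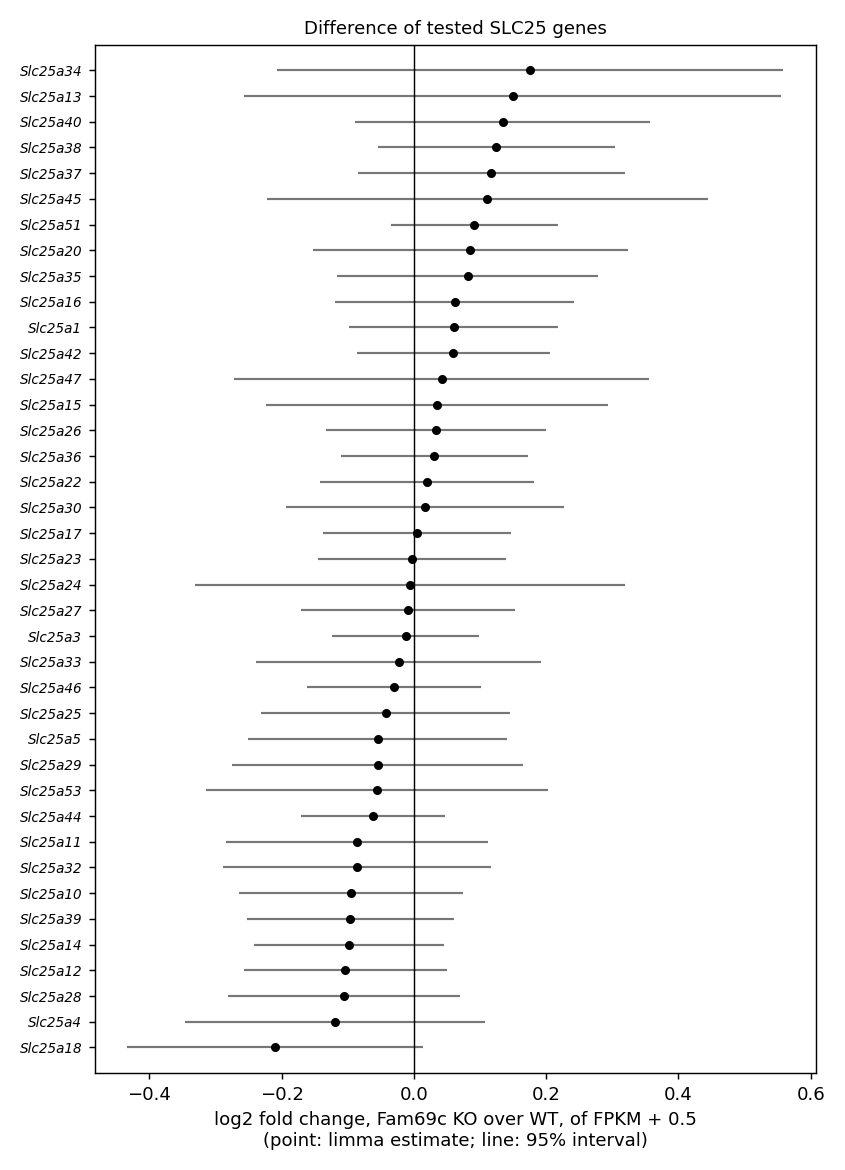
Log2 fold change of FPKM + 0.5, Fam69c KO over WT, for 39 of the 40 tested members, with points for the limma estimate and lines for the 95% interval (3 libraries a group). Every interval crosses 0, from Slc25a34 at 0.18 at the top to Slc25a18 at -0.21 at the bottom.

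The ADP/ATP carriers exchange matrix ATP for cytosolic ADP. In these libraries Slc25a4 and Slc25a5 were the family's 2 most abundant members. Slc25a5 has processed pseudogenes so alike in sequence that the stretches below matter for reading its values. Over 888 aligned coding bases Slc25a4 and Slc25a5 were 78.6% identical, with a longest identical run of 20 bases, and over 880 bases Slc25a5 and Slc25a31, the carrier best known from testis, were 69.1% identical. The processed pseudogene Gm5529 matched the Slc25a5 transcript at 96.8% over 900 bases, and Gm5560 at 98.3% over 887. The lines give 90 coding bases, 5′ to 3′, from the GENCODE M21 transcripts of the mm10 genome: coding bases 52 to 141 of Slc25a4 (chromosome 8, 46206797 to 46211284, minus strand) and Slc25a5 (chromosome X, 36795651 to 36798807, plus strand), the matching bases 91 to 180 of Slc25a31 (chromosome 3, 40708855 to 40726096, plus strand), and the matching bases of the pseudogenes on chromosomes 1 and 5. Capitals mark bases that differ from Slc25a5.
Slc25a4: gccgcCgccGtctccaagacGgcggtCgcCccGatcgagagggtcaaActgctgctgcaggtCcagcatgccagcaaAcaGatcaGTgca
Slc25a5: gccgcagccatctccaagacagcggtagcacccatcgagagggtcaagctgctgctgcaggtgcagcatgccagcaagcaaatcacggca
Slc25a31: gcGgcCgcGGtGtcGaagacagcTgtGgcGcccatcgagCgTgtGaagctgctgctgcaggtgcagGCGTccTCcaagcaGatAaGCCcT
Gm5529: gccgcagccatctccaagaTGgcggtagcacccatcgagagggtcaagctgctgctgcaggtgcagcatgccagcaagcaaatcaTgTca
Gm5560: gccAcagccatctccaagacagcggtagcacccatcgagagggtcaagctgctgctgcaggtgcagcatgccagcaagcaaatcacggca

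The stretch was chosen as the 90 coding bases, aligned without gaps in all lines, where Slc25a4 and Slc25a5 are most alike. It is therefore no typical sample of the coding sequence. In this stretch Slc25a4 differed from Slc25a5 at 12 bases and Slc25a31 at 24, while Gm5529 differed at 4 and Gm5560 at 1. Gm5529 was at 1.83 ± 0.455 FPKM in Fam69c KO and 1.84 ± 0.308 FPKM in WT, and Gm5560 averaged 0.216 FPKM over the 6 libraries. How the authors' counting treated reads with several matches is not given in the sources used here, so the share of Slc25a5 reads assigned to these copies is uncertain.

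Slc25a4, the main ADP/ATP carrier of heart, muscle and brain, was at 237, 201 and 195 FPKM in the Fam69c KO libraries and at 238, 242 and 208 FPKM in the WT libraries. Slc25a5, the carrier of dividing and many other cells, was at 128, 113 and 112 FPKM in Fam69c KO and at 126, 129 and 111 FPKM in WT. In both genes Fam69c KO replicate 1 lay with WT replicates 1 and 2, and WT replicate 3 lay low with Fam69c KO replicates 2 and 3, so the groups overlapped. The log2 fold change was -0.12 for Slc25a4 (SE 0.096, interval -0.35 to 0.11) and -0.05 for Slc25a5 (SE 0.083, interval -0.25 to 0.14). In these bulk samples fewer cells of a type and less RNA per cell cannot be told apart. Slc25a31 had 0 to 10 reads in a library and did not enter the test.

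Phosphate for ATP synthesis enters through Slc25a3, and the calcium-regulated ATP-Mg/phosphate carriers adjust the adenine nucleotide pool of the matrix. Slc25a3 was at 79.5, 76.8 and 73.5 FPKM in Fam69c KO and at 76.6, 77.4 and 77.6 FPKM in WT, and its SD over the 6 libraries, 0.037 log2 units, was the lowest in the family. Slc25a23 was at 72.4, 68.3 and 69.1 FPKM in Fam69c KO and at 75.0, 69.7 and 65.8 FPKM in WT. Slc25a25, another gene of this kind, was lower in level, at 7.91, 7.62 and 8.77 FPKM in Fam69c KO and at 7.61, 8.57 and 8.90 FPKM in WT. Log2 fold changes were -0.01 for Slc25a3, -0.0029 for Slc25a23 and -0.04 for Slc25a25. Slc25a24 averaged 0.817 ± 0.200 FPKM in Fam69c KO and 0.813 ± 0.0267 FPKM in WT, and Slc25a41 had 0 to 9 reads in a library.

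The malate-aspartate shuttle moves cytosolic NADH equivalents into mitochondria with 2 carriers, one exchanging malate for 2-oxoglutarate and one exchanging aspartate for glutamate. Slc25a11, the malate/2-oxoglutarate carrier, was at 44.7, 38.0 and 36.2 FPKM in Fam69c KO and at 43.3, 42.7 and 39.9 FPKM in WT. Slc25a12, the aspartate/glutamate carrier of brain and muscle known as aralar, was at 25.4, 22.1 and 22.2 FPKM in Fam69c KO and at 24.3, 25.5 and 25.0 FPKM in WT. For both genes Fam69c KO replicates 2 and 3 were the lowest of the 6 libraries, while replicate 1 was the highest for Slc25a11 and within the WT values for Slc25a12. Their log2 fold changes were -0.09 (SE 0.083) and -0.10 (SE 0.065). Slc25a13, the liver-type aspartate/glutamate carrier citrin, was at 1.12, 0.837 and 1.02 FPKM in Fam69c KO and at 0.843, 1.14 and 0.595 FPKM in WT, on 75 to 144 reads. Its log2 fold change was 0.15 (SE 0.17), but 0.0032 without WT replicate 3, 0.29 without WT replicate 2, 0.09 without Fam69c KO replicate 1 and 0.23 without Fam69c KO replicate 2. It was among the 3 tested members with the widest spread, 0.22 log2 units over the 6 libraries.

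Glutamate enters mitochondria through Slc25a22, found in neurons and other cells, and Slc25a18, a carrier enriched in astrocytes. Slc25a22 was at 42.5, 43.4 and 37.8 FPKM in Fam69c KO and at 42.4, 40.9 and 38.5 FPKM in WT, with a log2 fold change of 0.02 (SE 0.068). Slc25a18 (chromosome 6, 120773578 to 120794336, plus strand) was at 39.3, 31.9 and 30.8 FPKM in Fam69c KO and at 39.5, 37.5 and 40.7 FPKM in WT. Fam69c KO replicates 2 and 3 lay below every other library, and replicate 1 lay within the WT values. Its log2 fold change of -0.21 (SE 0.094, interval -0.43 to 0.01) had the smallest unadjusted limma p of the family, 0.0617, with an adjusted p of 0.999. Without Fam69c KO replicate 1 and WT replicate 3 together it was -0.29 (limma adjusted p = 0.223).

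Astrocyte markers measured beside Slc25a18 did not share 1 direction. Of 5 markers, 2 had log2 fold changes above 0 and 3 below, and their summed level was 110.2 to 119 FPKM in Fam69c KO and 112 to 122 FPKM in WT. Gfap, the filament protein of reactive astrocytes, had a log2 fold change of -0.21, and Aldh1l1, an astrocyte folate enzyme, 0.22, both with a limma adjusted p of 0.999. Their unadjusted limma p was 0.0320 and 0.0190, so 2 of the 5 markers were under 0.05, against 3.82% of all genes tested. The groups did not overlap for 2 of the 5, Aldh1l1 and Gja1, both higher in Fam69c KO, against 8.87% of all genes tested. The part of astrocyte RNA in the Slc25a18 values was not tested.

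Carriers of carboxylates and fatty acid intermediates were lower in level. Slc25a1, which exports citrate for lipid synthesis, averaged 15.0 ± 1.19 FPKM in Fam69c KO and 14.3 ± 0.501 FPKM in WT. Slc25a10, the dicarboxylate carrier, averaged 3.88 ± 0.263 FPKM in Fam69c KO and 4.18 ± 0.200 FPKM in WT. Slc25a20, which imports acylcarnitines for fatty acid oxidation, averaged 2.38 ± 0.108 FPKM in Fam69c KO and 2.22 ± 0.300 FPKM in WT (SD, n = 3 each throughout). Their log2 fold changes were 0.06, -0.10 and 0.09, each with a 95% interval that crossed 0. The oxodicarboxylate carrier Slc25a21 had 7 to 19 reads in a library and was not tested.

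Among carriers of other amino acids and glutathione, Slc25a44 was the most abundant. This carrier of branched-chain amino acids was at 30.9, 30.1 and 29.5 FPKM in Fam69c KO and at 31.4, 32.6 and 30.5 FPKM in WT, with a log2 fold change of -0.06 (SE 0.046). Slc25a39, which brings glutathione into mitochondria (chromosome 11, 102402985 to 102407946, minus strand), was at 20.8, 18.7 and 18.3 FPKM in Fam69c KO and at 21.7, 20.6 and 19.6 FPKM in WT. Fam69c KO replicates 2 and 3 were its lowest values, and its log2 fold change was -0.10 (SE 0.066). Its relative Slc25a40 (chromosome 5, 8422850 to 8454797, plus strand) was at 1.64, 1.66 and 1.46 FPKM in Fam69c KO and at 1.43, 1.27 and 1.51 FPKM in WT, a log2 fold change of 0.13 (SE 0.094). Slc25a38, a carrier linked to glycine import for haem synthesis, was at 7.74, 7.87 and 8.18 FPKM in Fam69c KO and at 8.09, 6.83 and 6.84 FPKM in WT, a log2 fold change of 0.12 (SE 0.076). WT replicate 1 was the library that made its groups overlap.

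The basic amino acid carrier Slc25a29 averaged 5.48 ± 0.416 FPKM in Fam69c KO and 5.73 ± 0.626 FPKM in WT. The ornithine carrier Slc25a15, part of the urea cycle in liver, averaged 2.30 ± 0.310 FPKM in Fam69c KO and 2.23 ± 0.230 FPKM in WT. Its relative Slc25a2 had 3 to 8 reads in a library.

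Carriers of nucleotides and cofactors supply the matrix with precursors and coenzymes made elsewhere. Slc25a51, which imports NAD+ (chromosome 4, 45395923 to 45408766, minus strand), was at 19.2, 20.6 and 20.9 FPKM in Fam69c KO and at 18.6, 18.6 and 19.7 FPKM in WT. WT replicate 3 lay above Fam69c KO replicate 1, and the other libraries of the groups did not cross. Its log2 fold change was 0.09 (SE 0.053), the second smallest unadjusted limma p of the family at 0.129. Slc25a33, a pyrimidine nucleotide carrier, was at 14.7, 12.5 and 12.3 FPKM in Fam69c KO and at 14.6, 13.5 and 12.2 FPKM in WT. Slc25a36, the other pyrimidine nucleotide carrier, was at 7.06, 7.08 and 6.56 FPKM in Fam69c KO and at 6.43, 6.78 and 7.02 FPKM in WT. The pair had log2 fold changes of -0.02 (SE 0.091) and 0.03 (SE 0.059).

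Other cofactor carriers between 2.80 and 10.4 FPKM in every library were Slc25a17 (peroxisomal cofactors), Slc25a42 (coenzyme A), Slc25a16 (a relative of the coenzyme A carrier), Slc25a26 (S-adenosylmethionine) and Slc25a32 (folate and flavin). Their log2 fold changes ran from -0.09 for Slc25a32 to 0.06 for Slc25a16. Slc25a17 averaged 9.96 ± 0.434 FPKM in Fam69c KO and 9.93 ± 0.520 FPKM in WT.

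The mitoferrins carry iron for haem and iron-sulfur clusters. Slc25a28, mitoferrin 2, the form of most tissues (chromosome 19, 43663822 to 43674881, minus strand), was at 20.6, 22.9 and 24.4 FPKM in Fam69c KO and at 24.2, 23.0 and 25.7 FPKM in WT, a log2 fold change of -0.11 (SE 0.074). Slc25a37, mitoferrin 1, the form best known from red cell precursors (chromosome 14, 69241848 to 69285112, minus strand), was at 6.78, 7.40 and 8.18 FPKM in Fam69c KO and at 6.28, 6.92 and 7.27 FPKM in WT, a log2 fold change of 0.12 (SE 0.085). The groups overlapped for each of these genes. Markers of red blood cells, with log2 fold changes below 0 for 5 of 5, had a summed level of 73.7 to 126 FPKM in Fam69c KO and 109.6 to 126 FPKM in WT, and their part in the Slc25a37 values was not tested.

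The brain carriers related to uncoupling proteins were 3 genes. Slc25a14, also called UCP5, was at 18.1, 18.3 and 17.1 FPKM in Fam69c KO and at 19.1, 20.4 and 17.9 FPKM in WT, a log2 fold change of -0.10 (SE 0.061). WT replicate 3 lay within the Fam69c KO values and the other 2 WT libraries above them. Slc25a27, also called UCP4, was at 12.4, 12.5 and 13.6 FPKM in Fam69c KO and at 12.7, 12.1 and 13.9 FPKM in WT, a log2 fold change of -0.0084 (SE 0.068). Slc25a30, the kidney-named member, averaged 1.82 ± 0.126 FPKM in Fam69c KO and 1.80 ± 0.135 FPKM in WT. The summed level of the 3 genes was 32.5 FPKM in each Fam69c KO library and 33.8, 34.1 and 33.7 FPKM in the WT libraries, a description with no test. Each of the 3 genes alone overlapped between groups, and so did the summed level of every other role. The share of such sums over other sets of genes was not computed, so this sum has no background. The uncoupling protein Ucp2, named outside the family's numbering, averaged 2.39 ± 0.271 FPKM in Fam69c KO and 2.63 ± 0.310 FPKM in WT.

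Slc25a46 differs from the rest in sitting in the outer membrane, where it takes part in mitochondrial fission and fusion. It was at 22.5, 21.5 and 20.0 FPKM in Fam69c KO and at 21.3, 22.4 and 21.6 FPKM in WT, a log2 fold change of -0.03 (SE 0.055). Slc25a34, a carrier whose substrate is less certain, was at 2.20, 2.93 and 2.11 FPKM in Fam69c KO and at 2.46, 2.20 and 1.60 FPKM in WT, on 142 to 261 reads. Its SD over the 6 libraries, 0.23 log2 units, was the highest among the tested members. It rested on Fam69c KO replicate 2 at the top and WT replicate 3 at the bottom, with the other 4 libraries between 2.11 and 2.46 FPKM. Slc25a53, Slc25a35, Slc25a45 and Slc25a47, also of less certain substrate, averaged between 0.975 and 1.80 FPKM in either group, with log2 fold changes from -0.06 to 0.11.

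Of the 47 members, 7 stayed under a mean of 0.5 FPKM. Slc25a48 was the highest of them, with 28, 23 and 17 reads in the Fam69c KO libraries and 35, 42 and 27 reads in the WT libraries. Slc25a43 had 11, 13 and 12 reads in Fam69c KO and 4, 5 and 11 reads in WT. Slc25a54 had 1 to 7 reads in a library. Together with Slc25a2, Slc25a21, Slc25a31 and Slc25a41, given above, these genes were below the filter and no difference is given for them.

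Related carriers were also compared as ratios within a library, on which the library's scaling bears only through the added 0.5. For 8 pairs the log2 ratio of FPKM + 0.5 was compared between groups with a two-sided exact permutation test, in which 3 against 3 libraries allow no p under 0.1. Slc25a4 over Slc25a5 was 0.88, 0.84 and 0.80 in Fam69c KO and 0.91, 0.90 and 0.91 in WT, so the adenine nucleotide carriers stood at FPKM ratios of 1.74 to 1.85 in Fam69c KO and 1.87 to 1.88 in WT. The difference was -0.06 (exact p = 0.1, adjusted over the pairs 0.267). Slc25a37 over Slc25a28, mitoferrin 1 over mitoferrin 2, was -1.53, -1.57 and -1.52 in Fam69c KO and -1.87, -1.67 and -1.75 in WT, a difference of 0.22 (exact p = 0.1, adjusted 0.267). Slc25a39 over Slc25a40 was 3.31, 3.15 and 3.26 in Fam69c KO and 3.52, 3.57 and 3.32 in WT, a difference of -0.23 (exact p = 0.1, adjusted 0.267).

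With 0.5 added, the groups did not overlap in these 3 ratios, which is as far apart as 3 against 3 libraries can be ranked. In single genes 8.87% of all tested did not overlap, which is a share of levels and not of ratios. The share over ratios of other gene pairs was not computed, so these 3 have no background. The glutathione carriers came closest to overlap, with 3.31 in Fam69c KO replicate 1 and 3.32 in WT replicate 3. With 1 added in place of 0.5 these libraries changed places, so the groups of Slc25a39 over Slc25a40 then overlapped. The remaining 5 ratios overlapped between groups. Their differences were -0.25 for Slc25a12 over Slc25a13 (exact p = 0.3, and -0.32 and -0.21 with 0.1 and 1 added in place of 0.5), -0.23 for Slc25a18 over Slc25a22 (exact p = 0.2), -0.09 for Slc25a14 over Slc25a27 (exact p = 0.4), -0.05 for Slc25a33 over Slc25a36 (exact p = 0.8) and -0.04 for Slc25a25 over Slc25a23 (exact p = 0.9). None of the 8 passed an adjusted p of 0.05.

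**Figure D3:**
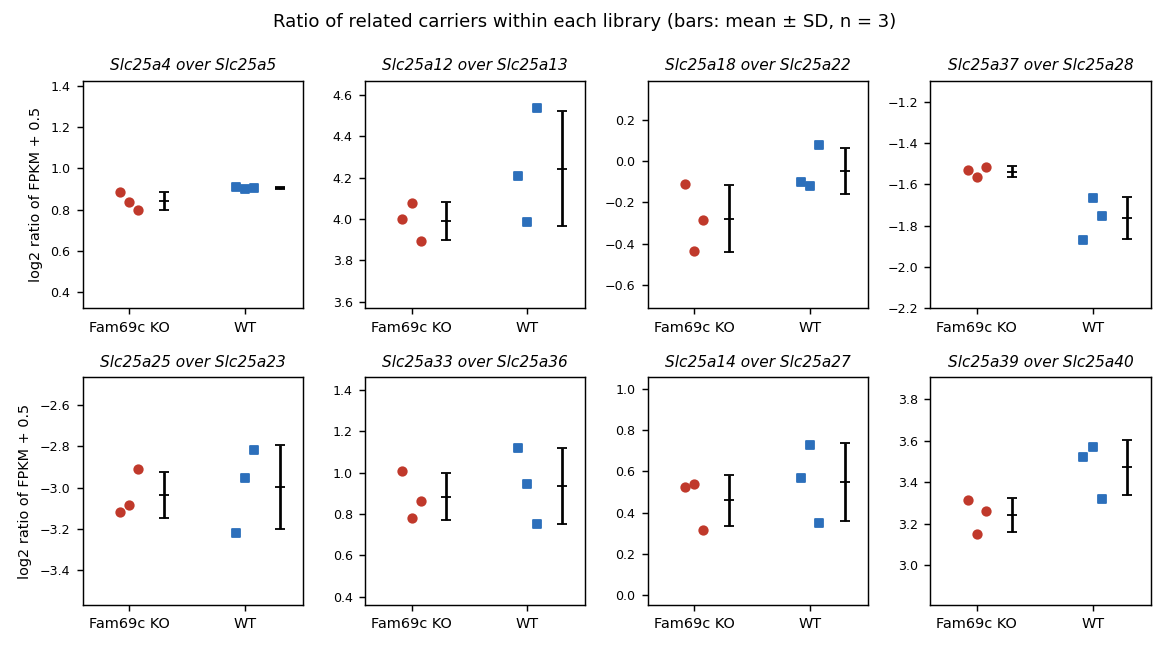
Log2 ratio of FPKM + 0.5 between related carriers in each library, Fam69c KO on the left of each panel and WT on the right, with bars for mean ± SD (n = 3). All panels span the same number of log2 units, and the groups do not overlap for Slc25a4 over Slc25a5, Slc25a37 over Slc25a28 and Slc25a39 over Slc25a40.

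For the ADP/ATP carriers the median deviation from each gene's mean was 0.10, -0.10 and -0.13 log2 units in Fam69c KO replicates 1 to 3, and 0.10, 0.13 and -0.09 in WT replicates 1 to 3. For the aspartate, glutamate and malate carriers it was 0.11, -0.10 and -0.11 in Fam69c KO and 0.05, 0.07 and -0.03 in WT. Fam69c KO replicate 1 was thus high with WT replicates 1 and 2, and for the ADP/ATP carriers WT replicate 3 was low with Fam69c KO replicates 2 and 3. For iron carriers the order differed, with -0.12, 0.01 and 0.12 in Fam69c KO and -0.06, -0.03 and 0.08 in WT. Over all 40 tested members the medians lay between -0.04 and 0.05.

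**Figure D4:**
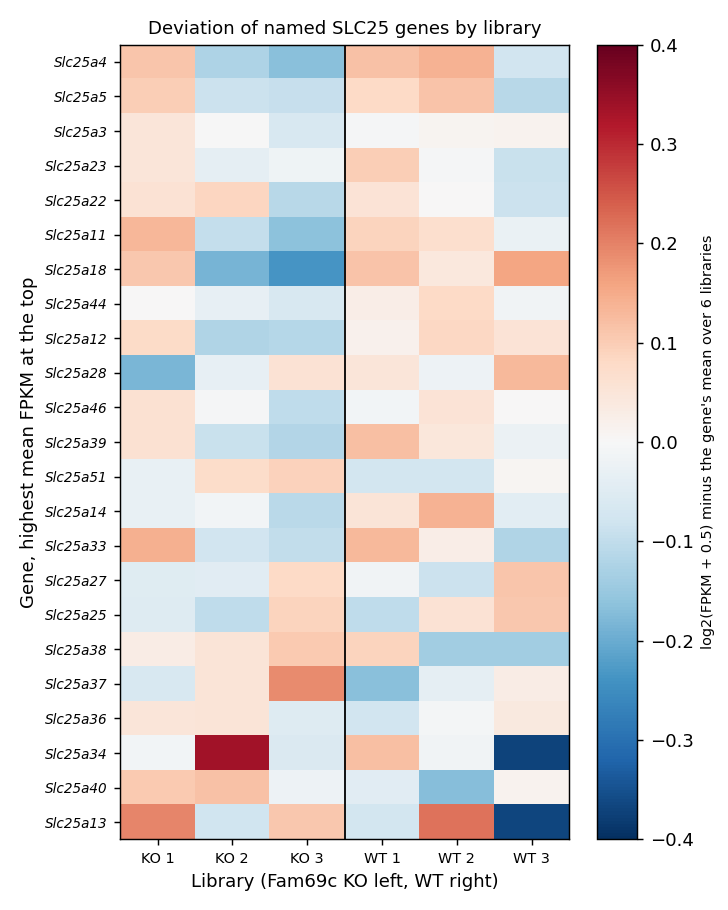
Deviation of log2(FPKM + 0.5) from each gene's mean over the 6 libraries for 23 members ordered by level, in the Fam69c KO libraries on the left and the WT libraries on the right. Slc25a4, Slc25a5 and Slc25a11 are above their means in Fam69c KO replicate 1 and WT replicates 1 and 2, and below them in the other 3 libraries.

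Slc25a18, Slc25a28, Slc25a22, Slc25a3, Slc25a12 and Slc25a23, also among the 10 highest, did not follow this order. Slc25a18 and Slc25a28 were highest in WT replicate 3, Slc25a22 in Fam69c KO replicate 2, and WT replicate 3 was not low for Slc25a3. For Slc25a12 WT replicate 3 was above the gene's mean (25.0 against 24.1 FPKM). For Slc25a23 WT replicate 2 was just below the gene's mean (69.7 against 70.1 FPKM).

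Measures of the libraries are given beside this pattern, whether or not they share its order. The deposited FPKM carry a factor per library relative to plain FPKM, which was 1.01, 0.992 and 0.979 in Fam69c KO and 1.01, 1.01 and 0.986 in WT. Over the names of all genes tested, summed FPKM was 272360, 262280 and 255140 in Fam69c KO and 271420, 272840 and 257820 in WT. The libraries high and low in this sum were those high and low for the ADP/ATP carriers, so that order is not particular to the carriers. The median deviation of all genes tested lay between -0.0046 and 0.0043 log2 units. The 4 oligodendrocyte markers had median deviations of 0.22, -0.13 and -0.08 log2 units in Fam69c KO and -0.02, 0.19 and -0.23 in WT, with summed levels of 444 to 566 FPKM in Fam69c KO and 441 to 572 FPKM in WT. The 8 striatal markers, all detected, deviated by -0.57, 0.48 and 0.20 in Fam69c KO and by 0.49, 0.53 and -0.97 in WT, and the 5 immediate early genes by -0.37, -0.21 and 0.02 in Fam69c KO and by -0.18, 0.09 and 0.74 in WT. The 6 neuron markers deviated by 0.08, -0.06 and -0.07 in Fam69c KO and by 0.02, 0.05 and -0.02 in WT. The choroid plexus gene Ttr was at 8.91, 7.58 and 3.50 FPKM in Fam69c KO and at 2.10, 3.10 and 2.79 FPKM in WT, with the other choroid plexus markers, Kl and Folr1, under 0.5 FPKM in every library. Of the 3 skeletal muscle markers, Ckm and Myh1 were under 0.5 FPKM in every library and Acta1 was at 9.56, 7.98 and 9.14 FPKM in Fam69c KO and at 8.38, 9.08 and 9.38 FPKM in WT. The part of these in the carrier values was not tested.

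With Fam69c KO replicate 1 and WT replicate 3 left out together, 9 of the 40 members had an unadjusted limma p under 0.05, against 13.3% of all genes tested, and 0 passed the adjusted threshold. The 9 were Slc25a4, Slc25a18, Slc25a5, Slc25a11, Slc25a39, Slc25a12 and Slc25a33, with log2 fold changes of -0.27, -0.29, -0.19, -0.21, -0.19, -0.17 and -0.17, and Slc25a51 and Slc25a37, with 0.16 and 0.22. Their smallest adjusted limma p was 0.223. The groups of these 4 libraries did not overlap for 17 of the 40 members, against 47.2% of all genes tested. With only Fam69c KO replicate 1 left out, 6 members had an unadjusted limma p under 0.05 (5.74% of all genes tested), all among the 9, and with only WT replicate 3 left out 1 member did (6.52%), Slc25a14. With only Fam69c KO replicate 3 left out it was Slc25a16 (3.35%), and with only WT replicate 1 left out it was Slc25a38 (2.73%). Leaving out each of these 3 libraries alone gave 8 members without overlap, against 22.4% of all genes tested without Fam69c KO replicate 1, 17.7% without Fam69c KO replicate 3 and 24.2% without WT replicate 3. Sample weights, which give a library less weight the more its genes deviate, gave 4 members at an unadjusted limma p under 0.05, against 9.05% of all genes tested: Slc25a18, Slc25a51, Slc25a4 and Slc25a39. Voom, limma's fit of the recovered reads, gave 1, Slc25a18, against 3.4% of all genes tested.

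Without overlap there were 2 members without Fam69c KO replicate 2 (15.6% of all genes tested), 1 without WT replicate 1 (15.0%) and 2 without WT replicate 2 (16.7%). With all 6 libraries there were 2 on a TPM scale (8.62%) and 1 in reads per library total (8.97%). With Fam69c KO replicate 1 and WT replicate 3 both left out, the log2 fold change of the mitoferrin Slc25a28 was -0.0016, against -0.11 in all libraries, and that of Slc25a34 was 0.08, against 0.18. The same comparison gave -0.15 for the uncoupling-type Slc25a14, -0.10 for Slc25a44, -0.07 for Slc25a46, -0.07 for Slc25a23 and -0.04 for Slc25a3. Slc25a13 and Slc25a22 were then at -0.06 and -0.04, and Slc25a25 and Slc25a27 at 0.02 and 0.07, each with its sign turned round. Among the ratios, Slc25a33 over Slc25a36 differed by -0.21, against -0.05 in all libraries, Slc25a14 over Slc25a27 by -0.22, against -0.09, and Slc25a12 over Slc25a13 by -0.11, against -0.25. Slc25a39 over Slc25a40 differed by -0.34, Slc25a18 over Slc25a22 by -0.25, Slc25a37 over Slc25a28 by 0.22, Slc25a4 over Slc25a5 by -0.09 and Slc25a25 over Slc25a23 by 0.09.

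Genes that work with the carriers were read from lists of partners. Of 13 genes of the carrier import path, 4 had log2 fold changes above 0 and 9 below, with a median of -0.05. Timm9 is a small chaperone between the membranes that escorts carrier proteins. It was at 6.17, 6.25 and 6.72 FPKM in Fam69c KO and at 7.86, 6.80 and 7.23 FPKM in WT. Its groups did not overlap, as for 8.87% of all genes tested. Its log2 fold change of -0.18 (SE 0.070) had an unadjusted limma p of 0.0366 and an adjusted p of 0.999. Timm9 was the only 1 of the 13 under 0.05 before adjustment, against 3.82% of all genes tested. The import receptor Tomm20 averaged 60.6 ± 3.20 FPKM in Fam69c KO and 64.4 ± 2.35 FPKM in WT, and Timm22, the core of the inner membrane insertase, 8.15 ± 0.805 FPKM in Fam69c KO and 8.12 ± 0.786 FPKM in WT.

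The 4 enzymes of the malate-aspartate shuttle all had log2 fold changes below 0, with a median of -0.07, and 0 passed. Mdh1, the cytosolic malate dehydrogenase, was at 272, 233 and 222 FPKM in Fam69c KO and at 242, 260 and 231 FPKM in WT. Got2, the mitochondrial aspartate aminotransferase, was at 60.5, 51.8 and 49.9 FPKM in Fam69c KO and at 60.1, 58.7 and 54.4 FPKM in WT. Their median deviations were 0.10, -0.09 and -0.12 log2 units in Fam69c KO and 0.11, 0.06 and -0.06 in WT, so the libraries that were high and low were those seen in the ADP/ATP carriers.

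In the outer membrane, the metabolite channels Vdac1, Vdac2 and Vdac3 summed to 232, 216 and 204 FPKM in Fam69c KO and to 231, 230.5 and 211 FPKM in WT, and 0 of 3 passed. Mtch1, a divergent relative of the carriers in that membrane, averaged 139.7 ± 3.09 FPKM in Fam69c KO and 142 ± 6.08 FPKM in WT. Of 7 genes of the pyruvate carrier and the sideroflexins, some of which carry serine, 5 had log2 fold changes above 0 and 0 passed. Sfxn3 was at 47.4, 45.1 and 46.5 FPKM in Fam69c KO and at 43.9, 44.3 and 44.4 FPKM in WT. Its groups did not overlap, as for 8.87% of all genes tested, and its log2 fold change was 0.07. Of 7 genes of the calcium uniporter, 2 were above 0 and 0 passed, and of 6 regulators of mitochondrial gene expression, Ppargc1a among them, 2 were above 0 and 0 passed.

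Counting may blur some members, and those named here are not all that share bases with another gene. Exons of Slc25a11 share 189 bases with Rnf167 on the other strand, those of Slc25a33 281 bases with Gm13068, those of Slc25a18 32 bases with Atp6v1e1, and those of Slc25a35 1151 bases, 31.3% of its exon length, with Rangrf, and whether counting used strand is not given in the sources used here. Transcripts of Slc25a36 and the pseudogene Gm13217 were 99.6% identical over 544 bases, and those of Slc25a12 and Adpgk over 247 bases at 99.6%. Gm13217 and Adpgk averaged 0.431 and 1.76 FPKM. Slc25a37 matched Gm16867 and Gm37847 at 100% over 382 and 381 bases, and both averaged 0 FPKM. Slc25a40 matched the processed pseudogene Gm5066 at 96.3% over 724 bases, and Gm5066 averaged 0.055 FPKM. The part of these copies, and of the Slc25a5 pseudogenes given above, in the ratios between related carriers was not tested. This holds for Slc25a4 over Slc25a5 as well as for the ratios of Slc25a37 and Slc25a40. The pseudogene Slc25a5-ps, which is not protein coding and so not counted here, averaged 0.0766 ± 0.0747 FPKM in Fam69c KO and 0.0294 ± 0.0242 FPKM in WT.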

How the data were processed

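RNA of 3 Fam69c KO and 3 WT cortex libraries was measured. Per the labels' protocols, RNA was taken up in Trizol and libraries made with a TruSeq kit. The submitters' processing notes name Bowtie and the mm10 build. Not given in the sources used here were the counter, its handling of strand and of multiple matches, and the annotation. The authors deposited FPKM for 54532 genes, and 98.1% of rows have the start and end of GENCODE M21 (44 of the 47 members). Multiplied by gene length, 100% of values above 0 in every library came out as a whole number of reads within 0.001.

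From these values, limma 3.58.1 in R 4.3.3 fitted log2(FPKM + 0.5), with a variance trend, two-sided and with no covariate, where the mean FPKM reached 0.5. Because of the pseudocount, fold changes of low genes are understated. FPKM are not counts, so a count test was used only as an alternative, as voom on recovered reads. Libraries may be technical replicates, so p-values measure the spread between libraries. The script was run on simulated data with no library effect and with changes larger than any member's estimate. That run does not bear on changes of the members' size. BLAST+ 2.17.0 found near copies (at least 95% over 200 bases) and Biopython 1.88 aligned coding sequences.

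Of the members, 1 is counted but not reported here. The members and the gene lists were chosen with earlier results of these data known. Values in every library are given for the 10 highest members, the 6 with the smallest p, those in ratio pairs, Slc25a46 and the 3 with the highest SD. Slc25a48, Slc25a43, Slc25a35, Timm9, Sfxn3, Ttr, Gfap, Aldh1l1 and the other partner and marker genes named were chosen after their values were seen. Alternatives were other pseudocounts, filters, scalings and variance settings, sample weights, a block by replicate number, voom, and leaving out libraries.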

Additional observations from a re-analysis of the deposited data

How the results depend on the processing

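Under all 17 alternatives 0 of the tested members passed an adjusted p of 0.05. Members with an unadjusted limma p under 0.05 numbered 0 as reported, 4 with sample weights (9.05% of all genes tested), 1 with voom (3.4%), 9 without Fam69c KO replicate 1 and WT replicate 3 together, and 0 to 6 with 1 library left out. Members whose groups do not overlap numbered 0 as reported, 2 with TPM scaling (8.62%), 1 with voom (8.97%), 17 without that pair (47.2%) and 1 to 8 with 1 library left out. Over all genes, 599 of the 15694 tested had an unadjusted limma p under 0.05 as reported, and 1214 of the 32400 tested with no filter. Of the same 15694 there were 1420 with sample weights, 2092 without the pair and 426 to 1023 with 1 library left out. Without the pair 1 gene, Gm47283, which is no member, passed the adjusted threshold. With the replicate number as a block (replicate block) 0 members had an unadjusted p under 0.05 and the smallest member adjusted p was 0.909. Between same-numbered Fam69c KO and WT libraries, the genes' deviations from their group means correlated at 0.08, 0.01 and 0.21. Not every library's deviations correlated best with those of its own number, so the numbers were not taken to pair libraries. TPM scaling moved the median of all genes by 0.02 log2 units and centring by -0.0093.

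Directions near 0 depended on the setting. With TPM scaling the log2 fold change was 0.00972 for Slc25a3, 0.0188 for Slc25a23 and 0.0129 for Slc25a27, and with voom 0.00216, 0.0116 and 0.00516. Sample weights gave 0.0105 for Slc25a27. Without Fam69c KO replicate 1 and WT replicate 3 together it was -0.0576 for Slc25a13, -0.0408 for Slc25a22, 0.0164 for Slc25a25 and 0.0666 for Slc25a27. With 1 library left out it ran from -0.0387 to 0.0175 for Slc25a3, from -0.0171 to 0.0815 for Slc25a22, from -0.0477 to 0.0454 for Slc25a23, from -0.1048 to 0.00113 for Slc25a25, from -0.0531 to 0.0452 for Slc25a27, from -0.1004 to 0.036 for Slc25a33, from -0.000326 to 0.0647 for Slc25a36 and from -0.0678 to 0.0131 for Slc25a46. The difference in Slc25a25 over Slc25a23 was 0.089 without the pair and ran from -0.15 to 0.0488 with 1 library left out, that in Slc25a33 over Slc25a36 from -0.147 to 0.0363, and that in Slc25a14 over Slc25a27 from -0.19 to 2.87e-05. The other 5 ratios kept their sign in every alternative run. The causes were not tested. Depth was lowest for the 7 members below the filter, at 0 to 42 reads in a library, and no difference is reported for them.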
